A study of Mus musculus with 6 samples.

Results

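The 10 genes described are the members of the tumor necrosis factor (TNF) receptor superfamily Tnfrsf9, Tnfrsf1a, Tnfrsf1b, Tnfrsf10b, Tnfrsf11b, Tnfrsf12a, Tnfrsf21, Fas, Ltbr and Cd40. They were taken by gene name from a table of 22880 genes, and each name matched 1 gene. Their RNA was measured in MC-38GFP cells, murine colon adenocarcinoma cells labelled with green fluorescent protein (GFP), grown as orthotopic tumors in the cecum wall of C57BL/6J mice and sorted back as living GFP+, CD45- and CD31- cells. There were 3 libraries of HIF-1α-KD cells, a line with a stable knockdown of the hypoxia-inducible factor HIF-1α, and 3 of Mock cells, the control line. Per the labels, both lines were transduced with pLKO.1-puro and neither was passaged in vivo. The hosts were wild-type mice, so only the tumor cells carried the knockdown. Each condition was 1 stable line, and it was not stated whether a library came from a single tumor, so p-values measure only the spread between these libraries, which may be technical.

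Receptors of this family sit on the cell surface and are engaged by trimeric ligands of the TNF superfamily. Members with a death domain, such as Fas and TNFR1, can assemble complexes that activate caspases, whereas members without one recruit TRAF adaptors and pass signals to NF-κB and stress kinases. On tumor cells the family is known both for death signals delivered by immune cells and for survival and inflammatory signals, and 4-1BB, the product of Tnfrsf9, is best known as a costimulatory receptor of activated T and NK cells.

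The targeted gene was lower in each library labelled as a knockdown. Hif1a had 6914, 5424 and 4945 normalized counts in the Mock libraries against 697.3, 3142 and 1928 in the HIF-1α-KD libraries (log2 fold change -1.82, SE 0.46, limma adjusted p = 0.219), and -1.21 without HIF-1α-KD replicate 1. Car9, a carbonic anhydrase widely used as a hypoxia marker, had 3382 to 4470 in Mock and 212.3 to 1041 in HIF-1α-KD libraries. A normalized count is a gene's read count divided by 1 factor per library, and between 19845852 and 30809139 reads per library lay on genes. Epithelial genes were low for a carcinoma line, with Cdx2 at no more than 2.42 normalized counts and the summed level of 8 such genes between 66.0 and 120 in 5 libraries and at 535 in Mock replicate 3. Genes usual in fibroblasts were high, with the sum of 8 between 24973 and 52031, mostly from the proteoglycan gene Dcn. Leukocyte RNA was uneven despite the CD45- gate, since 12 myeloid and B cell genes summed to 4562, 4659 and 4587 in Mock and to 2980, 3238 and 13708 in HIF-1α-KD libraries. The sum of 12 T and NK cell genes was only 8.85 to 49.7, Cd3e did not exceed 2.46 and Ncr1 had no read. The sum of 8 endothelial genes was 328 to 632, mostly from Cdh5, and no tested gene of these marker lists had an adjusted p under 0.05 by limma. At an unadjusted p under 0.05 there were 4 of the 30 tested (13.3%, against 12.7% of all genes), each with at least 1.5-fold difference. Cspg4 (log2 fold change 1.42), Rgs5 (1.15) and Pdgfrb (0.59), known from pericytes, were higher in HIF-1α-KD cells and Cdh5 (-0.84) lower, and 3 of the 30, all of these but Pdgfrb, did not overlap, against 19.2% of all genes. Other genes of the same lists had log2 fold changes of the opposite sign, with Dcn at -0.38, Dpt at -0.83 and Lum at -0.16 among the fibroblast and pericyte genes and Pecam1 at 0.26 and Tek at 1.26 among the endothelial genes. The part of these cells in the receptor levels was not tested, and the genes named from the marker lists were chosen after their values were seen. In bulk RNA of sorted cells, fewer cells of a type and less RNA per cell cannot be told apart.

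Promoter sequence is shown for Tnfrsf9, Fas and Tnfrsf21, the receptors that differed by at least 1.5-fold between the groups at an unadjusted p under 0.05. It is the 250 bases before a RefSeq start site (GRCm38.p6), which was given for 7 of the 10 members in 8 windows. Tnfrsf10b, Tnfrsf11b and Cd40 had no entry. Capitals mark matches on either strand to ACGTG or GCGTG, the core letters of a hypoxia response element, to GGG and CC with any 5 bases between them, a loose NF-κB motif, or to TGANTCA, an AP-1 motif. ACGTG also lies within the E-box CACGTG, which reads alike on both strands. The upstream Tnfrsf9 window (chr4:150919905-150920154, plus strand, inside the annotated gene but in no annotated exon) held no match:
Tnfrsf9 upstream start: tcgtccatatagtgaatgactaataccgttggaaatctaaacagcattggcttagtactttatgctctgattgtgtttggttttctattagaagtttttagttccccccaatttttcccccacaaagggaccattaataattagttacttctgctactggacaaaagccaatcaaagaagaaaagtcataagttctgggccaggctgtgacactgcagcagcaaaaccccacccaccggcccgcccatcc
The second Tnfrsf9 window overlaps an exon of the gene and is shown as 26 and 24 bases around its matches, chr4:150927948-150927973 and chr4:150927975-150927998 on the plus strand:
Tnfrsf9 downstream start, overlapping NF-κB matches: gagcagctGGGGATTTCCCaggaggc
Tnfrsf9 downstream start, AP-1 motif: ctgctcagtTGAGTCAcaggtcct
The Fas window (chr19:34290409-34290658, plus strand, no annotated exon) held every motif searched, with CACGTG from 110 to 105 bases and GCGTG from 57 to 53 bases before the start:
Fas: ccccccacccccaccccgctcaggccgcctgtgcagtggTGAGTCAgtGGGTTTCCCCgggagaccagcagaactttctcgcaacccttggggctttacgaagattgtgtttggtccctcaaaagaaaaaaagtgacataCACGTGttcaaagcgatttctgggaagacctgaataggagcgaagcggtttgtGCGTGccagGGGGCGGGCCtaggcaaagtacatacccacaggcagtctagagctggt
The Tnfrsf21 window (chr17:43016305-43016554, plus strand, no annotated exon) ends in its only match, ACGTG read on the minus strand:
Tnfrsf21: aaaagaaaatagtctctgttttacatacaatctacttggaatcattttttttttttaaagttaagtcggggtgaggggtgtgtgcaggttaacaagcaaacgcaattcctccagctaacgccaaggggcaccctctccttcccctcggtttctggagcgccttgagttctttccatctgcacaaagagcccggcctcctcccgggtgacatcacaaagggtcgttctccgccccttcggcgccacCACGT

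Among the 7 members with a window, 3 held ACGTG (Fas, Tnfrsf21 and Ltbr), against 16.6% of 32851 windows of this length. GCGTG was found in 2 members, Fas and Tnfrsf1b, against 28.2% of windows. The NF-κB motif was found in 6 members, all but Tnfrsf21, against 45.8% of windows, and the AP-1 motif in Tnfrsf9 and Fas, against 6.75%. A member counts if any of its windows matches, and Tnfrsf9 has 2, whereas the shares are per window. A match is a description of letters, and a window without one says only that those letters are not in it.

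The receptors spanned 4 orders of magnitude in level. In FPKM, a read count scaled to gene length and library total on which levels of different genes can be set side by side, Tnfrsf1a (104 ± 7.47, SD, n = 3) and Tnfrsf12a (104 ± 48.7) led in Mock cells, followed by Ltbr (64.6 ± 11.7), Tnfrsf1b (36.0 ± 6.76) and Tnfrsf9 (32.5 ± 16.0). Fas (6.57 ± 1.86), Tnfrsf10b (6.44 ± 0.409), Tnfrsf21 (1.46 ± 0.317) and Cd40 (0.381 ± 0.151) followed, and Tnfrsf11b was at 0.0103. Of the 9 pairs of neighbours in this order, 5 did not overlap in the Mock libraries. The FPKM levels of Tnfrsf1a and Tnfrsf12a, Tnfrsf12a and Ltbr, Tnfrsf1b and Tnfrsf9, and Fas and Tnfrsf10b overlapped between libraries. Within each Mock library Tnfrsf12a still lay above Ltbr, whereas the order of the other overlapping neighbours changed from library to library. Tnfrsf1a lay above 90.7% of the tested genes by its Mock FPKM level, and Cd40 above 4.30%.

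In HIF-1α-KD cells the order of the FPKM levels was the same except that Fas and Tnfrsf9 changed places. Fas stood at 19.7 ± 6.64 and Tnfrsf9 at 8.65 ± 4.25 FPKM, and these overlapped in the HIF-1α-KD libraries. The ratio of Tnfrsf9 to Fas FPKM was 4.11, 4.33 and 5.87 in the Mock libraries against 0.315, 0.571 and 0.430 in the HIF-1α-KD libraries. Tnfrsf9 was the more abundant receptor of the pair in each Mock library, and Fas in each HIF-1α-KD library. By group mean the other neighbours kept their order, with Tnfrsf1a at 139 ± 11.2 FPKM first and Tnfrsf12a at 98.6 ± 30.8 second. Within libraries, Ltbr lay above Tnfrsf12a in HIF-1α-KD replicate 1, and Tnfrsf10b above Tnfrsf9 in HIF-1α-KD replicates 1 and 3. The deposited lengths of 9 receptors were shorter than their annotated exons together (844 against 2591 bases for Tnfrsf1a), Tnfrsf11b being the exception. With exon length in GENCODE M21 in their place, Tnfrsf12a ranked first and Tnfrsf1a second in both groups, and Tnfrsf9 went from rank 5 in Mock to rank 7 in HIF-1α-KD cells.

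**Figure D1:**
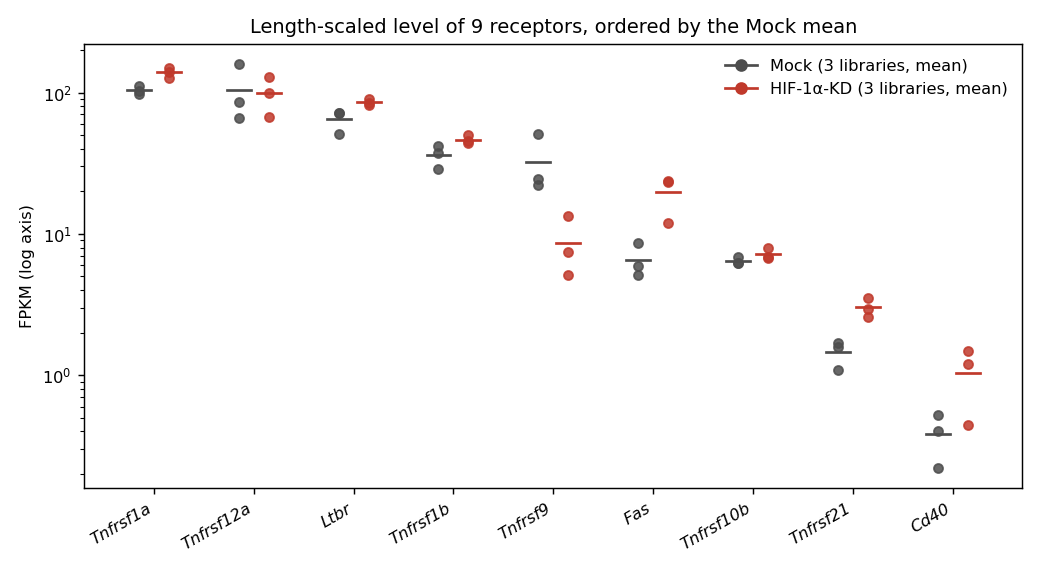
FPKM on a log axis for 9 receptors, ordered by their Mock mean, with each library as a point and the group mean as a bar (Mock grey, HIF-1α-KD red, 3 libraries each). Tnfrsf1a and Tnfrsf12a lie near 100 FPKM and Cd40 near or below 1, and the Tnfrsf9 and Fas points trade places between the groups.

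Whether the knockdown changed these transcripts was tested with limma on log2 of the normalized count plus 1 over 12014 genes, with Benjamini-Hochberg adjustment. Of the 10 members, 9 passed the filter on low counts, and none of these had an adjusted p under 0.05, where 47 of all genes tested (0.391%) did, 0.00832% of genes being higher and 0.383% lower. At an unadjusted p under 0.05 there were 4 members by limma, 3 higher and 1 lower in HIF-1α-KD cells, where 12.7% of all genes passed (7.04% higher and 5.69% lower). With a fold of at least 1.5 as well, 3 members remained, Tnfrsf9 lower and Fas and Tnfrsf21 higher, where 7.48% of genes passed, 4.02% higher and 3.46% lower. edgeR called none of the 9 at an adjusted p under 0.05, where it called 0.391% of genes, and 5 at an unadjusted p under 0.05, where it called 12.4%. DESeq2 called 3 (Tnfrsf9, Fas and Tnfrsf21) at an adjusted p, where it called 2.36% of genes. Those 3 are also in the study's own list of changed genes made from these libraries, so that list is not independent evidence of a direction. For Tnfrsf9 the study also reported a lower level by quantitative PCR in sorted HIF-1α-KD tumor cells, which was not examined here. The groups did not overlap for 6 members, 5 higher and 1 lower, where 19.2% of genes did not overlap, 10.4% higher and 8.75% lower. The median log2 fold change of the 9 was 0.36, against 0.02 for all genes tested. The filter was passed by Cd40 with 3 HIF-1α-KD libraries and only 1 Mock library above its limit, so these counts describe the receptors that passed and not the family. With 3 libraries against 3, an exact permutation test of a single gene cannot go below p = 0.1.

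**Figure D2:**
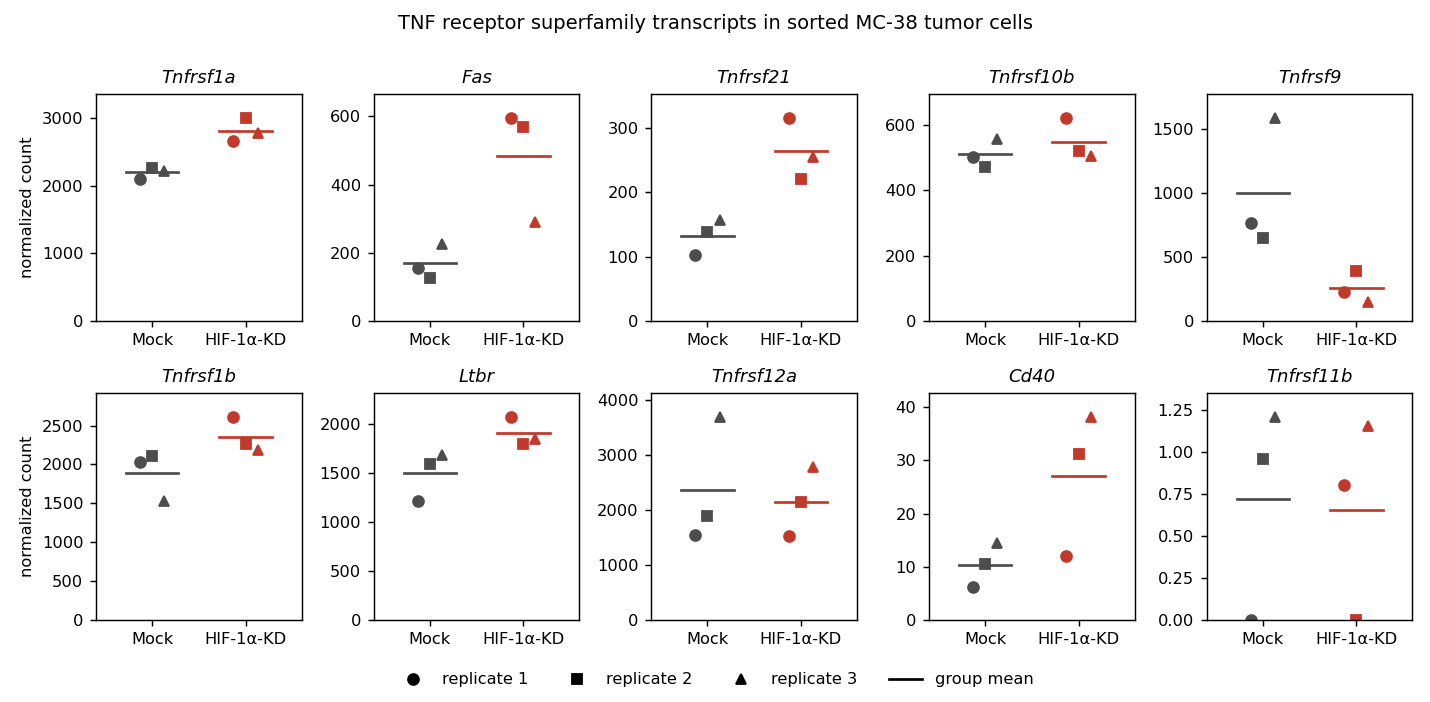
Normalized counts of the 10 receptors in each library, on a linear axis from 0 in each panel, with Mock in grey, HIF-1α-KD in red, the replicate number as the symbol and the group mean as a bar. Tnfrsf9 is the receptor whose 3 HIF-1α-KD values all lie below its 3 Mock values, and Fas and Tnfrsf21 lie above theirs without overlap.

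Tnfrsf9 (ENSMUSG00000028965, chromosome 4, 150914562 to 150946102, plus strand) encodes 4-1BB, which recruits TRAF adaptors. It had 762.0, 649.8 and 1586 normalized counts in the Mock libraries against 224.4, 388.5 and 149.0 in the HIF-1α-KD libraries. The highest HIF-1α-KD library stayed below the lowest Mock library, and Mock replicate 3 was more than 2-fold above the other Mock libraries. The HIF-1α-KD level was 3.91-fold lower (95% interval 2.04 to 7.48), or -1.97 on the log2 scale (SE 0.41, limma adjusted p = 0.1395). The adjusted p was 0.136 by edgeR and 4.6e-05 by DESeq2. Over the fits that dropped 1 library the log2 fold change ran from -2.33 to -1.58, the smallest change in size being without Mock replicate 3. That library also held the most epithelial RNA and the largest sum of fibroblast and pericyte genes. This sum was 31657, 32835 and 52031 in the Mock libraries against 39695, 39501 and 24973 in the HIF-1α-KD libraries. The part of either in the result was not tested. The summed T and NK cell genes were at 33.2, 23.9 and 21.7 in the Mock libraries against 8.85, 43.2 and 49.7 in the HIF-1α-KD libraries, and their part in the Tnfrsf9 level was not tested. Within the groups the order of Tnfrsf9 and that of Hif1a were mixed. Mock replicate 3 had the least Hif1a of the Mock libraries and the most Tnfrsf9, whereas HIF-1α-KD replicate 2 had the most of both among the HIF-1α-KD libraries.

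The 5 tested genes whose log2 levels ran most closely with Tnfrsf9 over the 6 libraries were Tex26 (Pearson r = 0.9926), Yipf3 (0.9845), Phospho1 (0.9757), Helb (0.9734) and Myo15b (0.9688). Each was highest in Mock replicate 3 and lowest in HIF-1α-KD replicate 3, as Tnfrsf9 was. All 6 libraries enter each r, so the group difference is part of it, and it is a description chosen from 12014 genes. Their own log2 fold changes were smaller than that of Tnfrsf9, from -1.07 (Myo15b) to -0.20 (Yipf3).

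Of the receptors with a death domain, Fas, Tnfrsf21 and Tnfrsf1a were higher in each HIF-1α-KD library than in any Mock library, and Tnfrsf10b overlapped. Among all genes tested, 10.4% were higher without overlap. Fas (ENSMUSG00000024778, chromosome 19, 34290666 to 34327772, plus strand), the receptor of Fas ligand, had 155.1, 125.4 and 225.9 normalized counts in the Mock libraries against 595.2, 568.4 and 289.9 in the HIF-1α-KD libraries. HIF-1α-KD replicate 3 stood well below the other HIF-1α-KD libraries and close to Mock replicate 3. The level was 2.80-fold higher (95% interval 1.66 to 4.73), or 1.49 on the log2 scale (SE 0.33, limma adjusted p = 0.171). DESeq2 gave an adjusted p of 0.001225 and edgeR 0.150. The log2 fold change was 1.82 without HIF-1α-KD replicate 3, the library with the high myeloid sum, and 1.30 at the least, without Mock replicate 2.

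Tnfrsf21 (ENSMUSG00000023915, chromosome 17, 43016555 to 43089189, plus strand) encodes death receptor 6. It reached 102.2, 137.8 and 157.0 normalized counts in the Mock libraries against 316.1, 221.8 and 255.3 in the HIF-1α-KD libraries. The level differed by 1.00 on the log2 scale (SE 0.25, 95% interval 0.43 to 1.57, limma adjusted p = 0.219), and the lowest HIF-1α-KD library lay above the highest Mock library. DESeq2 gave an adjusted p of 0.0408 and edgeR 0.236.

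Tnfrsf1a (ENSMUSG00000030341, chromosome 6, 125349362 to 125362484, plus strand) encodes TNFR1, the main receptor of soluble TNF. It had 2106, 2271 and 2221 normalized counts in the Mock libraries against 2662, 3004 and 2782 in the HIF-1α-KD libraries. Both groups were tight and did not overlap, yet the difference was small, 1.28-fold (log2 fold change 0.36, SE 0.13, 95% interval 0.06 to 0.65, limma adjusted p = 0.333). Tnfrsf10b (ENSMUSG00000022074, chromosome 14, 69767472 to 69784411, plus strand), the mouse receptor of TRAIL, had 502.3, 473.7 and 559.3 in the Mock libraries against 622.5, 521.6 and 505.9 in the HIF-1α-KD libraries. These groups overlapped, and the interval of its log2 fold change (0.10) was -0.29 to 0.49, so a difference of 2-fold lies outside it in either direction.

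Of the receptors that signal through TRAF adaptors without a death domain, Tnfrsf1b and Ltbr were higher in each HIF-1α-KD library than in any Mock library. That held for 10.4% of all genes tested. Tnfrsf1b (ENSMUSG00000028599, chromosome 4, 145213463 to 145246870, minus strand) encodes TNFR2, and had 2026, 2107 and 1532 normalized counts in the Mock libraries against 2608, 2266 and 2181 in the HIF-1α-KD libraries. Ltbr (ENSMUSG00000030339, chromosome 6, 125306571 to 125313885, minus strand) encodes the lymphotoxin β receptor, and had 1211, 1585 and 1680 in the Mock libraries against 2065, 1790 and 1848 in the HIF-1α-KD libraries. The gaps between the groups were narrow for both, and the log2 fold changes of 0.33 (SE 0.17, limma adjusted p = 0.460) and 0.36 (SE 0.17, limma adjusted p = 0.408) had intervals that held 0. Ltbr lies 35.5 kb from Tnfrsf1a, on the opposite strand, and the log2 fold changes of these neighbours were equal to 2 decimals. Without Mock replicate 1 they were 0.22 for Ltbr and 0.32 for Tnfrsf1a. That of Tnfrsf1b was 0.18 without Mock replicate 3.

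Tnfrsf12a (ENSMUSG00000023905, chromosome 17, 23675445 to 23677468, minus strand) encodes Fn14, the receptor of TWEAK. It was among the most abundant receptors and also among the most variable, with 1541, 1885 and 3689 normalized counts in the Mock libraries against 1523, 2148 and 2788 in the HIF-1α-KD libraries. In both groups replicate 3 was highest and the groups overlapped. Its log2 fold change of -0.08 (95% interval -0.84 to 0.68) became 0.29 without Mock replicate 3 and 0.15 without HIF-1α-KD replicate 1.

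Cd40 (ENSMUSG00000017652, chromosome 2, 165055627 to 165072948, plus strand) encodes the receptor of CD40 ligand and is known from B cells and myeloid cells. It rested on 5, 11 and 12 reads in Mock and 15, 26 and 33 reads in HIF-1α-KD libraries, or 6.16, 10.5 and 14.5 against 12.1, 31.2 and 38.1 normalized counts. The lowest HIF-1α-KD library lay within the Mock range. The log2 fold change was 1.23 (SE 0.58, 95% interval -0.10 to 2.55, limma adjusted p = 0.425), and it was 0.92 without HIF-1α-KD replicate 3, 0.93 without Mock replicate 1 and 1.71 without HIF-1α-KD replicate 1. HIF-1α-KD replicate 3 had the most Cd40 and the largest myeloid and B cell sum. The part of those cells in the Cd40 level was not tested. Tnfrsf11b (ENSMUSG00000063727, chromosome 15, 54250619 to 54278484, minus strand), which encodes the secreted decoy receptor osteoprotegerin, had 0, 1 and 1 reads in the Mock libraries against 1, 0 and 1 in the HIF-1α-KD libraries. It was not tested, and a difference in it was not detectable at this depth.

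**Figure D3:**
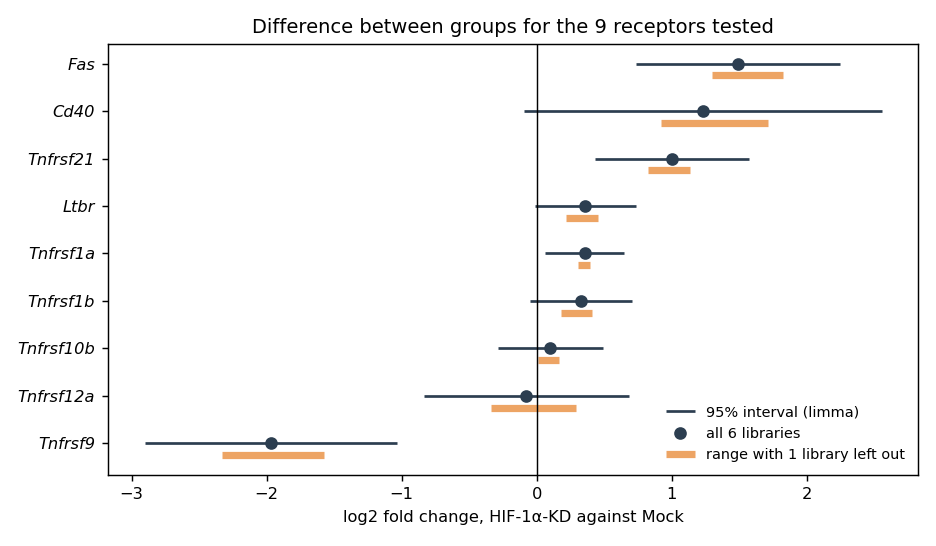
Log2 fold change of HIF-1α-KD against Mock for the 9 receptors tested by limma, with its 95% interval as a dark line and the range over fits that leave out 1 library as an orange bar. The intervals of Tnfrsf9, Fas, Tnfrsf21 and Tnfrsf1a lie to one side of 0, and the orange bar crosses 0 for Tnfrsf12a.

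Across the rest of the pathway 60 of 81 genes were tested. None had an adjusted p under 0.05 by limma or by edgeR, and 7 had an unadjusted p under 0.05 by each of these tools, where 12.7% of all genes did by limma and 12.4% by edgeR. DESeq2 called 1 at an adjusted p under 0.05, Map3k5, where it called 2.36% of all genes, and 8 at an unadjusted p, where it called 13%. Of 18 other receptors of the family, 9 were tested and none reached an unadjusted p under 0.05 by limma. Their median log2 fold change was 0.21, and Relt, a receptor first found in lymphoid tissue, was the only one of the 9 without overlap, with 82.5 to 121.5 normalized counts in Mock and 127.1 to 167.3 in HIF-1α-KD libraries, where 19.2% of all genes did not overlap. The decoy receptor Tnfrsf22 (log2 fold change 0.49, SE 0.29) and Tnfrsf13c, the BAFF receptor (0.64, SE 0.53), overlapped. With 1 library left out Tnfrsf22 ran from 0.28 to 0.775 and Tnfrsf13c from 0.33 to 1.02.

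The ligands were sparse in these cells. Of 18, 6 were tested, and Fasl, Cd40lg, Tnfsf11, Cd70 and Tnfsf15 had no read in any library, which allows up to 3 reads per library. Cd70 and Tnfsf15 bind no receptor described here and complete that count. Tnfsf14 and Lta, ligands of the lymphotoxin β receptor and of the TNF receptors, stayed at or below 3.69 and 4.83 normalized counts, and Ltb at or below 38.6. Tnfsf9, the ligand of 4-1BB, had 439.5, 463.2 and 490.4 normalized counts in the Mock libraries against 304.0, 314.2 and 269.1 in the HIF-1α-KD libraries. Like its receptor it was lower in each HIF-1α-KD library, with a log2 fold change of -0.65 (SE 0.17, 95% interval -1.04 to -0.26, limma adjusted p = 0.238). Its exons share 192 of 1290 bases with the antisense gene Gm11110, and the strand setting of the counting was not stated, so reads of the pair may not be told apart. Tnf had 62.8, 152.2 and 76.1 against 61.1, 181.1 and 95.9 normalized counts, and replicate 2 was the highest in both groups. Tnfsf12, which encodes TWEAK, had 494.4 to 654.7 over all libraries (log2 fold change 0.01, 95% interval -0.40 to 0.42). Tnfsf10, which encodes TRAIL, had 32.0, 31.6 and 44.7 against 12.1, 139.1 and 72.8 (log2 fold change 0.49, SE 0.76), and Tnfsf13b, which encodes BAFF, had its lowest and its highest value both among the HIF-1α-KD libraries (54.7 and 259.0). The log2 fold change of Tnfsf13, which encodes APRIL, was -0.21 (SE 0.32).

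All 24 adaptors and ubiquitin enzymes were tested, and 4 of them (16.7%) had an unadjusted p under 0.05 by limma, a share near the 12.7% of all genes. These 4 were higher in HIF-1α-KD cells, as were more of all such genes (7.04% against 5.69% lower). Map3k5, which encodes the stress kinase ASK1, had 129.3, 120.6 and 118.4 normalized counts in the Mock libraries against 406.2, 224.2 and 189.4 in the HIF-1α-KD libraries, or 1.07 higher on the log2 scale (SE 0.30, limma adjusted p = 0.253). Traf3, a brake on the noncanonical NF-κB pathway, had a log2 fold change of 0.56 (SE 0.18, limma adjusted p = 0.296) and Traf4 of 0.61 (SE 0.21, limma adjusted p = 0.312). The groups did not overlap for these 3 genes, nor for 2 more of the 24, Otulin (log2 fold change 0.24) and Tab3 (-0.35), named to complete that count after their values were seen. These 5 are a share near the 19.2% of all genes. The fourth, Traf5 (0.78, SE 0.34), overlapped and is named because it completes the count, after its value was seen. Traf6, the adaptor that the study followed further, had 663.5, 534.0 and 405.9 in the Mock libraries against 443.2, 448.5 and 467.8 in the HIF-1α-KD libraries. All HIF-1α-KD values of Traf6 lay inside the Mock range (log2 fold change -0.21, SE 0.21, limma adjusted p = 0.711). The log2 fold change was -0.04 without Mock replicate 1 and -0.39 without Mock replicate 3. The median over the 24 genes was 0.13.

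The 14 genes of the death pathway were all tested and their median log2 fold change was 0.02, as for all genes. Casp6, an executioner caspase, had 698.0, 580.9 and 546.0 normalized counts in the Mock libraries against 362.7, 462.8 and 391.6 in the HIF-1α-KD libraries (log2 fold change -0.58, SE 0.18, limma adjusted p = 0.290). Dffb, the nuclease that cuts DNA in apoptosis, had 641.4, 853.6 and 828.6 normalized counts in the Mock libraries against 212.3, 458.0 and 613.4 in the HIF-1α-KD libraries. The difference on the log2 scale of -0.97 (SE 0.35, limma adjusted p = 0.333) was -0.53 without HIF-1α-KD replicate 1, which was the lowest. Fadd and Casp8, which couple Fas to the caspases, differed by 0.18 (SE 0.23) and 0.04 (SE 0.16) on the log2 scale, and are named for that role after their values were seen.

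Of 7 genes of receptor shedding, by which TNF receptors are cut from the surface, all were tested and none reached an unadjusted p under 0.05 by limma, which 12.7% of all genes did. Adam17, the main sheddase of the TNF receptors, had 2643, 3179 and 2880 normalized counts in the Mock libraries against 3732, 3922 and 2921 in the HIF-1α-KD libraries (log2 fold change 0.27, SE 0.16). Its inhibitor Timp3 was spread over 139.1, 16.3 and 59.2 in the Mock libraries against 13.7, 5.995 and 32.3 in the HIF-1α-KD libraries (log2 fold change -1.80, SE 0.82, limma adjusted p = 0.405). That value was -1.10 without Mock replicate 1 and -2.61 without Mock replicate 2. Erap1, which binds TNFR1 and aids its release, was 0.21 higher on the log2 scale (SE 0.13) and the only one of the 7 without overlap, against 19.2% of all genes.

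**Figure D4:**
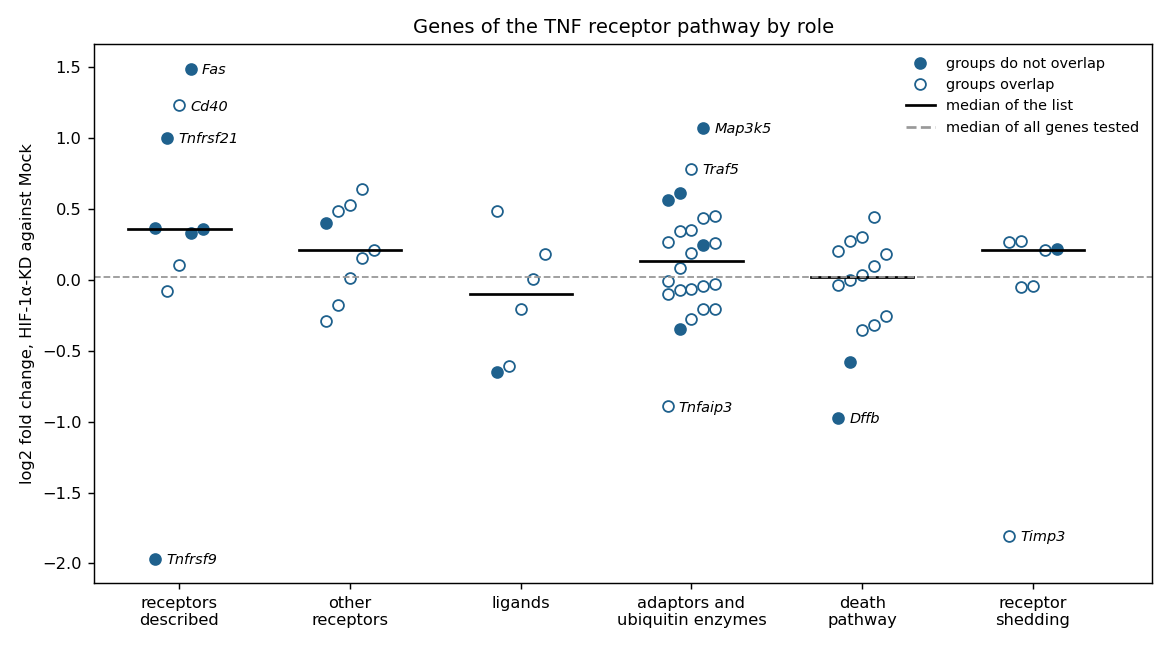
Log2 fold change of HIF-1α-KD against Mock for each tested gene of the receptors described and of 5 pathway lists, with filled points where the libraries of the groups do not overlap, black bars for list medians and a dashed line for the median of all genes tested. Genes more than 0.75 from 0 are named by that size alone, and Tnfrsf9 and Timp3 lie lowest, at -1.97 and -1.80, the latter between -2.61 and -1.10 with 1 library left out.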

How the data were processed

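RNA was measured in 6 libraries of sorted MC-38GFP tumor cells, 3 Mock and 3 HIF-1α-KD, grouped by the knockdown in their labels. The authors trimmed reads, aligned them with STAR and counted them on genes with featureCounts. The methods name GRCh38, whereas the submitters' processing notes name GRCm38 and the identifiers are mouse Ensembl, and the strand setting is not given in the sources used here. The methods name a stranded kit and the labels a kit without that word. The deposited normalized counts are a signal, each read count divided by 1 factor per library by the authors. The authors also deposited FPKM, the gene length and the GC fraction. The deposited log2 ratio, p-value and false discovery rate are the authors' own comparison and were not used.

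Reads were recovered from the normalized counts, and 100% of values up to 300 reads came out whole within 0.1. Reads on genes were 20836278, 25089525 and 21145421 for Mock, and for HIF-1α-KD 30809139, 19845852 and 20539379. Genes were filtered with filterByExpr of edgeR 4.0.16 (minimum count of 10) and 12014 were tested with limma 3.58.1 (trend, two-sided) on log2 of the normalized count plus 1, with Benjamini-Hochberg adjustment over all of them. Fold changes are on that scale, which understates those of low genes. Groups are said not to overlap where all libraries of one lie above all of the other. Alternatives were edgeR and DESeq2 1.42.0 on recovered reads, TMM factors, library size, no filter, pseudocounts of 0.1 and 10, no trend, a replicate block and leaving out each library. Exon length in place of the deposited length was added after seeing the data. The tests were tested on simulated data.

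The members and gene lists were chosen with earlier results of these data known. Named genes are the members, Hif1a, Car9, Traf6, the ligands of the members, the 3 genes of each pathway list with the smallest unadjusted p and the 5 genes most correlated with Tnfrsf9, with others marked where they stand. A gene that this rule names is not reported here. No member shares exon bases with another gene. Positions are from GENCODE M21 (GRCm38), promoters from RefSeq (GRCm38.p6). R 4.3.3, Python 3.11.15 and pandas 2.3.3 were used. Intervals cover the spread between libraries only.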

Additional observations from a re-analysis of the deposited data

How the results depend on the processing

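The count of receptors at an adjusted p under 0.05 was 0 under each alternative except DESeq2 (3), and that of other pathway genes 0 except DESeq2 (1). The count over all genes moved from 47 to 1 without the trend of limma, 283 with DESeq2 and 0 to 37 with 1 library left out (0 without Mock replicate 3 or HIF-1α-KD replicate 2). Pathway genes at an unadjusted p under 0.05 and 1.5-fold numbered 5, and 3 to 9 with 1 library left out, the lowest without Mock replicate 1 or HIF-1α-KD replicate 1 and the highest without HIF-1α-KD replicate 3. The 3 receptors by that rule were 3 or 4 throughout, and the 6 without overlap stayed 6 with TMM factors and with library size. Pairs of neighbours in abundance that did not overlap went from 5 to 4 with the normalized count in place of FPKM. They numbered 6 to 8 with a Mock library left out, but fewer libraries narrow each range, so overlap is then less likely.

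Of 135 values for the 9 receptors, 130 kept direction and side of the threshold, 3 passed it (DESeq2) and 2 reversed. With 1 library left out, Tnfrsf12a (log2 fold change -0.08) ran from -0.34 to 0.29, turning without Mock replicate 3 (0.29) or HIF-1α-KD replicate 1 (0.15), Tnf (0.18) from -0.23 to 0.56, turning without Mock replicate 1 (-0.08) or HIF-1α-KD replicate 2 (-0.23), and Tnfsf12 (0.01) from -0.0733 to 0.13. Tnfsf10 (0.49) was -0.24 without HIF-1α-KD replicate 2 and 1.47 without HIF-1α-KD replicate 1. Tnfsf12 was -0.0144 with TMM factors, -0.0099 with edgeR and -0.0002 with DESeq2. The causes were not tested.

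Replicate numbers were checked for pairing: deviations of same-numbered libraries correlated at -0.139, -0.123 and 0.0228, and those of differently numbered ones at -0.0716 to 0.162. From 3 libraries per group it cannot be told whether the numbers pair them, and the labels do not say. With the replicate block 0 genes in all were called, 0 of them receptors, and Tnfrsf9 had a log2 fold change of -1.97 (limma adjusted p = 0.261). Depth limits Cd40 (5 to 33 reads) and Tnfrsf11b (0 or 1 read).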
